A study of Mus musculus with 16 samples.

Results

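The ATP-binding cassette (ABC) transporter family was examined in the livers of mice with or without the histone chaperone HIRA in hepatocytes, before and after liver regeneration. Its members were the genes of the count table whose symbol consists of Abc, a subfamily letter from a to g and a number, with or without a closing letter, and whose counts over the 16 libraries added up to 10 or more. Of 49 gene IDs with such a symbol that are covered here, 44 met this minimum, among 23018 gene IDs that met it and 55421 in the table. Abca12, Abca13, Abca16, Abcb5 and Abcc8 fell below it. The 44 members comprised 13 of subfamily A, 8 of B, 9 of C, 4 of D, 1 of E, 3 of F and 6 of G. A mean of at least 1 CPM (counts scaled to library size, as described under the processing) over the 16 libraries was reached by 39 of them, and 9 reached a mean of at least 100 CPM.

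All mice were C57BL/6 males. HIRA, a chaperone that places histone H3.3 on DNA independently of replication, was deleted with adeno-associated virus serotype 8 carrying the hepatocyte promoter Tbg, so that other liver cells kept the gene. In 1 of the 2 approaches, HIRAfl/fl mice received AAV8-Tbg-Cre and wildtype mice with the same virus were the controls. In the other, wildtype mice received AAV8-Tbg-saCas9/U6-sgRNA-HIRA and the controls AAV8-Tbg-saCas9/U6-sgRNA-Rosa26. The mice were 6 months old when injected and 70% of the liver was resected 4 weeks later. The resected lobes gave the libraries before regeneration, and the liver that remained 5 days after resection gave those after it, so that time, lobe and way of collection changed together and cannot be told apart. Control and HIRA KO livers, each before and after regeneration, made 4 groups with 4 libraries each, 2 of each approach. The tables number the libraries of a group from 1 to 4 and do not say which approach or mouse a library came from. The labels do not say that each library came from a separate mouse, but the paper counts the libraries of a group as mice. On that count, p-values rest on the spread between mice within a group. As the approach was not a term of the fit, this spread also holds any difference between the 2 approaches. Lobes were resected from mice whose remaining liver was collected later, so libraries before and after regeneration may come from the same mice. As no label ties a library to a mouse, after and before regeneration were compared without pairing. Values in a group are given below in the order of these numbers.

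ABC transporters use the energy of ATP to carry lipids, bile constituents, drugs, metals and many other substrates across membranes. In hepatocytes some members sit in the canalicular membrane and export phospholipid, sterol and conjugated bilirubin into bile, while others sit in the basolateral membrane and return conjugates to blood. Members of subfamily D serve peroxisomes and lysosomes, several of subfamily B serve mitochondria, and those of subfamilies E and F have no membrane part and act in translation.

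Total counts ran from 15103059 to 21738619 per library, with a median of 18337571. The targeted gene Hira was at 5.77 ± 0.448 CPM in control livers and 3.54 ± 0.571 CPM in HIRA KO livers before regeneration, and at 5.67 ± 0.554 and 3.51 ± 0.707 CPM after it (mean ± SD, n = 4), with no overlap between HIRA KO and control at either time. Hira transcript from cells other than hepatocytes stays in such values, and its share of the remaining transcript was not tested. By western blot, the paper found less HIRA protein in HIRA KO livers at both times. In a principal component analysis over 13176 genes, HIRA KO libraries 1 and 2 before regeneration and 1 and 2 after it stood apart from all the others on the second component, which held 26.5% of the variance. They are called the 4 libraries that stood apart, and values without them are given beside the calls in HIRA KO. They were chosen as the HIRA KO libraries that lay beyond every control library on this component. Fold changes of HIRA KO without them are therefore selected toward control, and rest on HIRA KO libraries 3 and 4 at each time. The hepatocyte marker Alb was at 78780.0 CPM or more in every library. The 10 hepatocyte markers summed to 176441 and 158235 CPM in HIRA KO before 1 and 2. The other libraries before regeneration held 116383 to 145548 CPM. In HIRA KO after 1 and 2 they summed to 145607 and 160201 CPM, and in the others after regeneration to 116491 to 174929 CPM. Markers of proliferating cells (8 genes) summed to 22.9 and 17.1 CPM in HIRA KO before 1 and 2. In the others before regeneration they summed to 4.38 to 11.4 CPM. Of 10 marker lists, the 12 stellate cell and fibroblast markers summed to 887 and 706 CPM in HIRA KO before 1 and 2 and to between 346 and 418 CPM in the other libraries before regeneration, and the 8 B cell markers to 117 and 60.3 against 11.0 to 43.3 CPM. In HIRA KO after 1 and 2 the B cell markers summed to 105 and 37.2 CPM against 11.7 to 22.6 CPM in the other libraries after regeneration, and the stellate cell and fibroblast markers to 689.8 and 547 against 255 to 535 CPM. The 10 cholangiocyte markers summed to 203 and 107 CPM in HIRA KO before 1 and 2 and to between 57.6 and 83.1 CPM in the others before regeneration, and the 6 mesothelial markers reached 68.4 CPM in HIRA KO before 1 against 9.34 CPM or less in the others. In tissue, fewer cells of a type and less RNA per cell of that type cannot be told apart.

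Sequences upstream of the transcription start were read for the members on which the results below turn. RefSeq windows on GRCm38.p6 were found for 33 of the 44 members and not used for the other 11. Shown first are the 109 bases between Abcg5 and Abcg8, which encode the 2 subunits of the sterol exporter of the canalicular membrane, given on the plus strand (chr17:84683012-84683120). RefSeq starts of the 2 genes lie here in opposite directions, 110 bases apart. RefSeq has a further Abcg8 start 6819 bases before this one, which is also the GENCODE M21 start, so that by GENCODE bounds the 2 genes overlap by 6710 bases and the stretch lies inside Abcg8. Then follow bases upstream of Abcc2 and Abca8b, the members called lower in HIRA KO after regeneration. For Abca8b, on the minus strand, both annotations have the same start and all 250 bases of the window are shown (chr11:109995846-109996095). For Abcc2, on the plus strand, the GENCODE start lies 116 bases before that of RefSeq, and the 134 bases before both are shown (chr19:43782058-43782191). The RefSeq window of Abcc12 lies 14096 bases inside the GENCODE gene and is not shown. Each is written 5′ to 3′ on the strand named. Capitals mark the 5 motifs searched, each on both strands. The box that the factor NF-Y binds was searched as CCAAT, and the TATA box as TATAAA. For GATA factors the letters searched were AGATAA, and for the core of the motif bound by NRF2 they were TGACNNNGC. The E-box was searched in its palindromic form, CACGTG.
Abcg5 and Abcg8: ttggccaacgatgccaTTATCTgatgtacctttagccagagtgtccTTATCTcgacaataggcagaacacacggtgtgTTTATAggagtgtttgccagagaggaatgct
Abcc2: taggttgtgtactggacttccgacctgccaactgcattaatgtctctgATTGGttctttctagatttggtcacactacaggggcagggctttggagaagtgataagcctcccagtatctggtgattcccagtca
Abca8b: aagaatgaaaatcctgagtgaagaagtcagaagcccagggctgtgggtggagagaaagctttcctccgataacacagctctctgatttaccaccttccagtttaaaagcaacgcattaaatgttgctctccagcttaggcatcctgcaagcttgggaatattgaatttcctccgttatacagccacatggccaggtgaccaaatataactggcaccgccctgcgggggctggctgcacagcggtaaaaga
The Abcg5 and Abcg8 stretch held 2 GATA motifs and 1 TATA box, the 134 bases of Abcc2 held 1 CCAAT box, and none of these letters was found in the Abca8b window. Motif shares were taken over the full RefSeq windows, and those of 20 of the 33 members reach into the gene by GENCODE bounds. The NRF2 core motif was found in 3 members, Abcc4 and, inside the GENCODE gene, Abcc2 and Abcc10 (9.09% against 11.5% of 27025 genes with a window). Abcc4 has a window before its GENCODE start and another inside the gene, and which of them held the match is not given here. The GATA motif was found in 4 members (12.1% against 11.4%), the CCAAT box in 11 (33.3% against 37.5%), the TATA box in 5 (15.2% against 14.3%) and the E-box in 5, namely Abca1, Abca15, Abca8a, Abcc4 and Abcf1 (15.2% against 6.86%). A match describes the letters of the window only.

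Several members lie side by side in the genome. Abca8b, Abca8a, Abca9, Abca6 and Abca5 follow each other on the minus strand of chromosome 11 with 4770 to 29788 bases between neighbours, and Abcb1a, Abcb1b and Abcb4 follow each other on chromosome 5. Shared sequence limits the counts of some. Exons of the gene Gm29253 overlap those of Abcb6 on the same strand over 55.2% of its exon length. Of the 50-base stretches in the annotated transcripts of Abcb1a, 17.6% occur in another gene, mostly Abcb1b, and so do 11.6% of those of Abcb1b. For the remaining 41 members this share was at most 2.83%, with Abca8a and Abca8b at 1.64% and 1.42%. Exons of Abca3, Abcb1a and Abcb10 overlap exons of the opposite strand (D330041H03Rik, Gm42686 and Gm45890) over 9.75%, 10.1% and 10.3% of their exon length, and the strand setting of the counting is not stated.

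Levels between members were compared only per length, in FPKM, the deposited values scaled to transcript length and library size. In control livers before regeneration Abcd3, a fatty acid transporter of the peroxisomal membrane, stood first with 123 ± 9.21 FPKM (SD, n = 4), and its 4 libraries lay above those of every other member. Abcc2, the canalicular exporter of conjugated bilirubin, came second with 84.7 ± 9.76 FPKM, again without overlap with the next. Abcc3 and Abcb4 followed with 54.9 ± 10.8 and 48.8 ± 4.17 FPKM, and their libraries overlapped, so their order is not resolved. Abcc6, Abcg2, Abcg5 and Abcg8 were at 38.6, 30.9, 26.3 and 23.2 FPKM, and each overlapped its neighbour. In all, 30 members had a mean of at least 1 FPKM in this group. CPM divided by exon length gave the same first 3 members, but placed Abcg2 at rank 17 and Abcb6 at rank 24 where FPKM placed them at 6 and 9. Abcb10 was listed at 0 FPKM in every library although it held 327 to 992 counts per library, so no FPKM level is given for it.

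**Figure D1:**
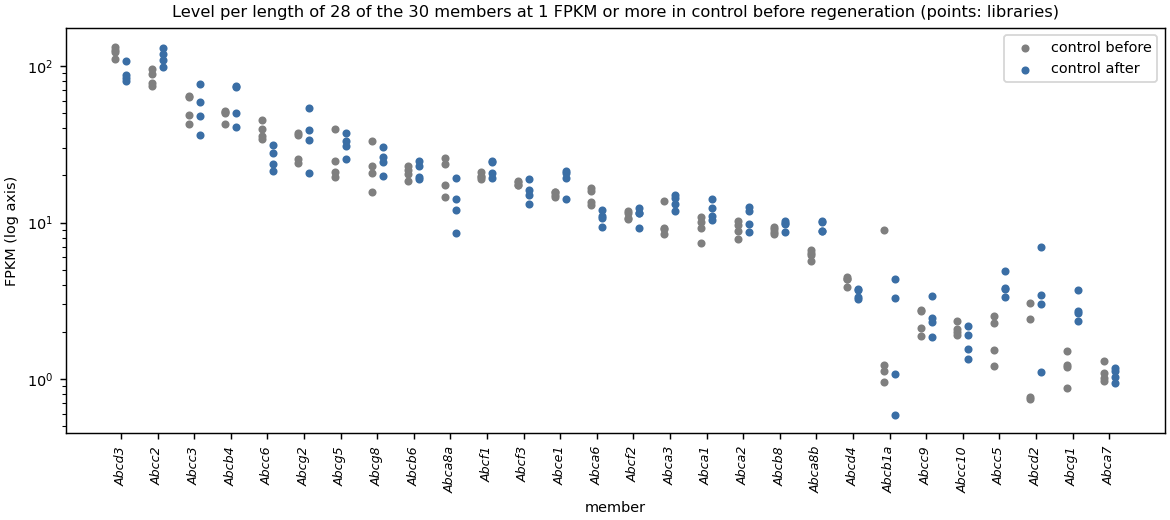
Level per length (FPKM, log axis) of 28 of the 30 members with a mean of at least 1 FPKM in control before regeneration, ordered by that mean, with 1 point per library in control before and control after regeneration. Abcd3 stood first before regeneration with 123 FPKM and Abcc2 second with 84.7 FPKM, and the points of neighbouring members overlap over most of the order.

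The question put to HIRA KO against control was how hepatocyte loss of the chaperone moved transcripts in resting and in regenerated liver. Before regeneration edgeR called 0 of the 44 members at an adjusted p under 0.05, against 0.0391% of all 23018 genes, and 6 members (13.6%) had an unadjusted p under 0.05, beside 13.2% of all genes. DESeq2 called 1, Abca3 (higher), against 1.66% of all genes. After regeneration edgeR called 2 members, Abca8b and Abcc2, both lower in HIRA KO. That is 4.55% of the members, against 0.491% of all genes, of which 0.2% were higher and 0.291% lower, and 7 members (15.9%) had an unadjusted p under 0.05, beside 15.8% of all genes. DESeq2 called 3, these 2 and Abca5 (higher), against 3.95% of all genes. The median log2 fold change of the 44 members was 0.08 before and -0.02 after regeneration, with 0.01 and 0.02 over all genes.

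The comparison of after with before regeneration asked which members moved as the liver regrew. In control 9 members were called, 6 higher (Abca8b, Abcc4, Abcc5, Abcc12, Abcg1 and Abcg3) and 3 lower (Abca6, Abcb10 and Abcc6). This share of 20.5% stood beside 10.2% of all genes, 6.04% higher and 4.17% lower. In HIRA KO 9 were also called, 3 higher (Abcc12, Abcg1 and Abcg3) and 6 lower (Abca2, Abca6, Abcb10, Abcc6, Abcd3 and Abcd4), beside 12.0% of all genes, 6.48% higher and 5.53% lower. The counts depend on the background chosen. Among the 39 members that passed edgeR's filter on low counts, 25.6% were called in control and 23.1% in HIRA KO, beside 18.0% and 20.5% of the 15201 genes that passed it. DESeq2 called 14 members in control and 9 in HIRA KO, with 14.2% and 15.8% of all genes. With the 4 libraries that stood apart left out, edgeR called 13 of 42 members in control (31.0%, beside 17.9% of all genes) and 7 in HIRA KO (16.7%, beside 10.3%). The median log2 fold change of the members was 0.05 in control and -0.10 in HIRA KO, with 0.00 and 0.02 over all genes. Scaling bore on the balance of directions: with library totals alone the median of all genes in HIRA KO moved to 0.14, and 74.4% of all its calls were higher in place of 54.0%, while the members were then 3 higher and 4 lower. With upper-quartile scaling 62.2% of all calls in HIRA KO were higher. In control the share was 59.1%, and 67.0% with library totals.

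**Figure D2:**
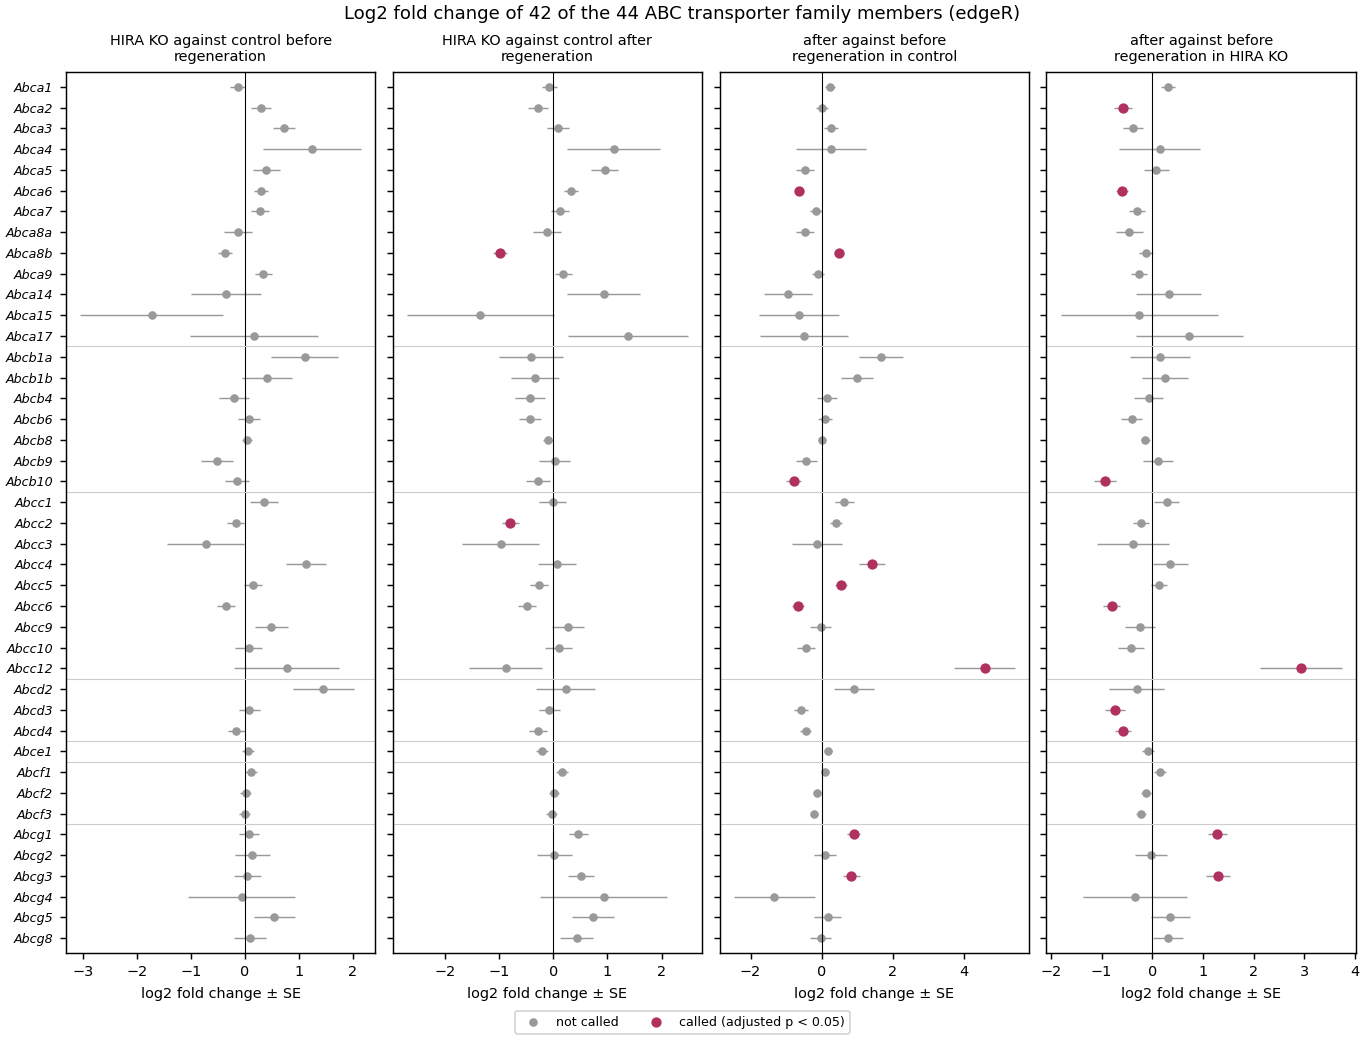
Log2 fold change (horizontal axis, bars ± SE) of 42 of the 44 members, by subfamily, in the 4 comparisons fitted with edgeR. Colour marks the members called at an adjusted p under 0.05: 0, 2, 9 and 9 from left to right, with Abcc12 farthest from 0 at 4.59 in control.

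The difference between the HIRA KO effects after and before regeneration (the interaction) was called for 0 members in edgeR, as for 0.0% of all genes, and 4 members (Abca2, Abca3, Abca8b and Abcc2) had an unadjusted p under 0.05, which is 9.09% beside 6.81% of all genes. DESeq2 called 0 members and 0.291% of all genes. The smallest such p was that of Abca8b, with a difference of -0.61 ± 0.19 and an adjusted p of 0.457 in edgeR. No difference between the regeneration changes of control and HIRA KO is therefore shown for any member, and both comparisons with regeneration share libraries with the comparisons of HIRA KO. In all, 13 members were called in at least 1 comparison, 6 in both regeneration comparisons and 31 in none.

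Among the canalicular exporters, Abcc2 (chr19:43782192-43840740, GRCm38, the mm10 build of the files, with gene bounds from GENCODE M21 here and below) was the only 1 called. It stood at 778, 614, 576 and 638 CPM in control livers and 558, 636, 568 and 553 CPM in HIRA KO livers before regeneration. After regeneration it stood at 711, 873, 909 and 953 CPM in control and 353, 505, 599 and 527 CPM in HIRA KO. The 4 HIRA KO values were each under the lowest control value after regeneration, and the groups overlapped before it. The log2 fold change of HIRA KO against control after regeneration was -0.80 ± 0.16 (adjusted p = 0.0392, edgeR), and the exact two-sided permutation p was 0.0286, the smallest that 4 against 4 libraries can give. This call was lost when control after 1, 2, 3 or 4 or HIRA KO after 1 or 2 was left out, with adjusted p from 0.0589 to 0.136 in edgeR. Without the 4 libraries that stood apart it was -0.59 (adjusted p = 0.184, edgeR). In the fit of the compared groups alone, which called 0 of 23001 genes, it was not called either (adjusted p = 0.179, edgeR). In control, the log2 fold change of Abcc2 with regeneration was 0.40 ± 0.16 (adjusted p = 0.12 in edgeR and 0.0491 in DESeq2), and it was called higher without the 4 libraries that stood apart (adjusted p = 0.0371, edgeR).

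Abcb4, which moves phosphatidylcholine into bile, was called in no comparison but had unequal HIRA KO libraries. Before regeneration it was at 259, 259, 236 and 291 CPM in control and 133, 178, 310.5 and 286 CPM in HIRA KO. After regeneration the values were 215, 244, 361 and 345 CPM in control and 136, 157, 295 and 277 CPM in HIRA KO. HIRA KO libraries 1 and 2 lay below every control library at both times, while libraries 3 and 4 lay among the controls or above them before regeneration and among them after it. HIRA KO against control was -0.20 ± 0.28 before and -0.43 ± 0.28 after regeneration on the log2 scale, and 0.19 and -0.01 without the 4 libraries that stood apart. For Abcg5 the order was the other way. It was at 117, 63.1, 62.9 and 74.5 CPM in control livers and 138, 182, 61.0 and 81.5 CPM in HIRA KO livers before regeneration, and at 102, 70.4, 86.9 and 97.0 CPM in control and 184, 235, 74.2 and 99.4 CPM in HIRA KO after it. HIRA KO libraries 1 and 2 lay above all controls at both times. Its partner Abcg8, across the 109 bases shown above, was at 136, 78.1, 72.6 and 103 CPM in control livers and 106, 145, 71.6 and 94.8 CPM in HIRA KO livers before regeneration, and at 105, 71.7, 99.3 and 107 CPM in control and 147, 189, 62.5 and 117 CPM in HIRA KO after it. Within HIRA KO both genes had their highest value in library 2 and their lowest in library 3, before and after regeneration alike. After regeneration the log2 fold change of HIRA KO against control was 0.74 ± 0.38 for Abcg5 and 0.43 ± 0.30 for Abcg8, with adjusted p of 0.371 and 0.526 in edgeR. With the 4 libraries that stood apart left out, these were -0.02 and -0.08.

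Abcg2, a canalicular exporter of drugs, urate and porphyrins, was at 62.0, 64.2, 99.3 and 98.8 CPM in control livers and 73.6, 76.0, 102 and 105 CPM in HIRA KO livers before regeneration. After it, the values were 58.1, 75.7, 91.6 and 121 CPM in control and 44.8, 57.6, 128 and 121 CPM in HIRA KO. Libraries 3 and 4 lay above libraries 1 and 2 in each of the 4 groups, and the groups overlapped in every comparison. The drug exporters Abcb1a and Abcb1b were low. Abcb1a was at 4.03, 1.72, 2.98 and 3.91 CPM in control livers and 11.4, 8.00, 3.54 and 4.20 CPM in HIRA KO livers before regeneration, and at 2.25, 3.27, 16.1 and 18.7 CPM in control and 4.89, 8.35, 8.30 and 8.96 CPM in HIRA KO after it. Control libraries 3 and 4 after regeneration were the highest of the 16 and control 1 was among the lowest. Its log2 fold change with regeneration in control was 1.68 ± 0.62, not called by edgeR (adjusted p = 0.109) but called by DESeq2. On the log2(FPKM + 0.1) scale, fitted with limma, the change was -0.08. The control libraries before regeneration ran from 0.955 to 8.98 FPKM, against 1.72 to 4.03 CPM. Without control after 1 Abcb1a was called (adjusted p = 0.0304, edgeR). Abcb1b was at 0.696, 1.29, 0.916 and 0.888 CPM in control livers and 1.53, 1.93, 0.612 and 0.939 CPM in HIRA KO livers before regeneration, and at 0.564, 1.89, 3.43 and 1.63 CPM in control and 1.59, 0.711, 2.04 and 1.67 CPM in HIRA KO after it, and was not called.

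**Figure D3:**
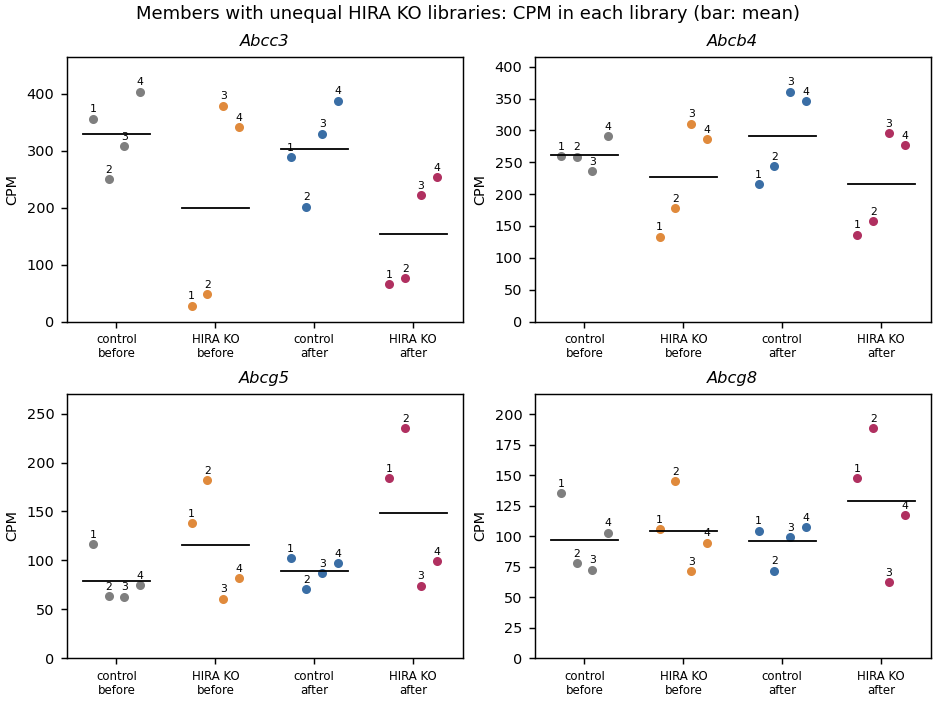
CPM in each library (vertical axis, from 0) of Abcc3, Abcb4, Abcg5 and Abcg8 in the 4 groups, with the library number beside each point and a bar at the group mean. HIRA KO libraries 1 and 2 are the lowest in Abcc3 and Abcb4 and the highest in Abcg5, before and after regeneration.

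Of the basolateral exporters, Abcc3, which returns glucuronides to blood, had the most unequal HIRA KO libraries. It was at 356, 249.7, 308 and 404 CPM in control livers and 28.2, 48.3, 379 and 342 CPM in HIRA KO livers before regeneration. In regenerated liver it was at 289, 202, 329.9 and 388 CPM in control and 65.3, 76.0, 221 and 253 CPM in HIRA KO. HIRA KO libraries 1 and 2 lay far below every control library at both times. Libraries 3 and 4 lay within the range of the controls, 249.7 to 404 CPM before and 202 to 388 CPM after regeneration. With this spread the log2 fold change was -0.73 ± 0.71 before and -0.97 ± 0.71 after regeneration, with adjusted p of 0.712 and 0.555 in edgeR. Without the 4 libraries that stood apart these changes were 0.13 and -0.33 (adjusted p = 0.949 and 0.645, edgeR).

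Abcc4 (chr14:118482692-118706219), an exporter of cyclic nucleotides and bile acids toward blood, rose with regeneration in control. Before regeneration it was at 5.12, 4.09, 3.43 and 5.86 CPM in control and 11.3, 12.8, 8.70 and 7.77 CPM in HIRA KO. After it the values were 7.02, 9.97, 7.30 and 25.0 CPM in control and 12.1, 13.5, 16.8 and 9.57 CPM in HIRA KO. Control after regeneration lay wholly above control before it, with control after 4 far above the other 3 libraries of its group. The log2 fold change was 1.42 ± 0.36 (adjusted p = 0.0216, edgeR). Without control before 2, control before 3 or control after 4 the adjusted p in edgeR was 0.0579 to 0.0623, and without control after 4 the log2 fold change was 0.78. It was also above 0.05 in edgeR without the 4 libraries that stood apart (0.0525, at the same fold change), which entered this comparison through the spread alone. In HIRA KO the change with regeneration was 0.36 ± 0.35 (adjusted p = 0.562, edgeR). Before regeneration all 4 HIRA KO libraries lay above all 4 controls, and the log2 fold change of 1.13 ± 0.36 missed the threshold (adjusted p = 0.233, edgeR).

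Abcc6 (chr7:45967555-46030302), a basolateral hepatocyte protein needed for the release of ATP, fell with regeneration in both genotypes. It was at 226, 210.3, 189 and 188 CPM in control livers and 137, 149, 171 and 179.5 CPM in HIRA KO livers before regeneration. Regenerated livers held 161, 133, 116 and 102 CPM in control and 66.3, 92.1, 83.6 and 123 CPM in HIRA KO. In neither genotype did the times overlap. Fitted over all libraries, the log2 fold change was -0.67 ± 0.17 in control and -0.80 ± 0.17 in HIRA KO, with adjusted p of 0.0184 and 0.0064 in edgeR, and -0.75 in HIRA KO without the 4 libraries that stood apart (adjusted p = 0.0289, edgeR). The call in control was lost without control before 1, control after 3 or control after 4, with adjusted p of 0.0563 to 0.0647 in edgeR. Before regeneration the 2 genotypes did not overlap, with control higher. HIRA KO against control was -0.35 ± 0.17 before and -0.49 ± 0.17 after regeneration and was not called (adjusted p = 0.393 and 0.177, edgeR).

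The largest called change of the family was that of Abcc12 (chr8:86482260-86580686). It was at 0.497, 0.646, 0.172 and 0.0592 CPM in control livers and 0.688, 1.13, 0.476 and 0.125 CPM in HIRA KO livers before regeneration, which is 1 to 17 counts per library. After regeneration the values were 3.19, 2.92, 9.38 and 18.7 CPM in control and 1.72, 2.04, 7.30 and 7.68 CPM in HIRA KO. Every library after regeneration lay above every library before it, and within both genotypes libraries 3 and 4 after regeneration lay above 1 and 2. The log2 fold change was 4.59 ± 0.86 in control and 2.93 ± 0.81 in HIRA KO (adjusted p = 0.00472 and 0.0323, edgeR). The call in HIRA KO was lost without HIRA KO before 1, 3 or 4 or HIRA KO after 3 or 4, with adjusted p of 0.0632 to 0.0869 in edgeR. With the 4 libraries that stood apart left out, its change in HIRA KO was 4.65 (adjusted p = 0.0454, edgeR). Markers of proliferating cells (8 genes) summed to 4.38 to 22.9 CPM before and 41.7 to 309 CPM after regeneration, and in control after libraries to 41.7, 134, 309 and 260.4 CPM. In the HIRA KO after libraries they summed to 69.2, 47.3, 284 and 87.5 CPM, where Abcc12 was about as high in library 4 as in library 3. The part of dividing cells in the Abcc12 values was not tested.

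Abcc5 (chr16:20331303-20426394), another exporter of cyclic nucleotides, was at 7.36, 8.02, 8.36 and 5.50 CPM in control before and 9.46, 10.6, 11.2 and 11.2 CPM after regeneration. In HIRA KO it was at 8.78, 8.94, 6.25 and 8.27 CPM before and 11.4, 8.13, 7.30 and 8.57 CPM after. The control groups did not overlap and the HIRA KO groups did. The rise in control was small, 0.54 ± 0.17 (adjusted p = 0.0446, edgeR), and was lost in 6 of 8 fits that left out 1 library (adjusted p up to 0.14 in edgeR), all but those without control before 3 or control after 1. Of the other members of subfamily C, Abcc1, Abcc9 (the sulfonylurea receptor subunit of a potassium channel) and Abcc10 were called in no comparison. Without the 4 libraries that stood apart, Abcc1 was called higher with regeneration in control (0.64, adjusted p = 0.0346 in edgeR) and Abcc10 lower in HIRA KO (-0.95, adjusted p = 0.0488 in edgeR). Among these 3 the changes with regeneration ran from -0.45 to 0.64 on the log2 scale over both genotypes.

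**Figure D4:**
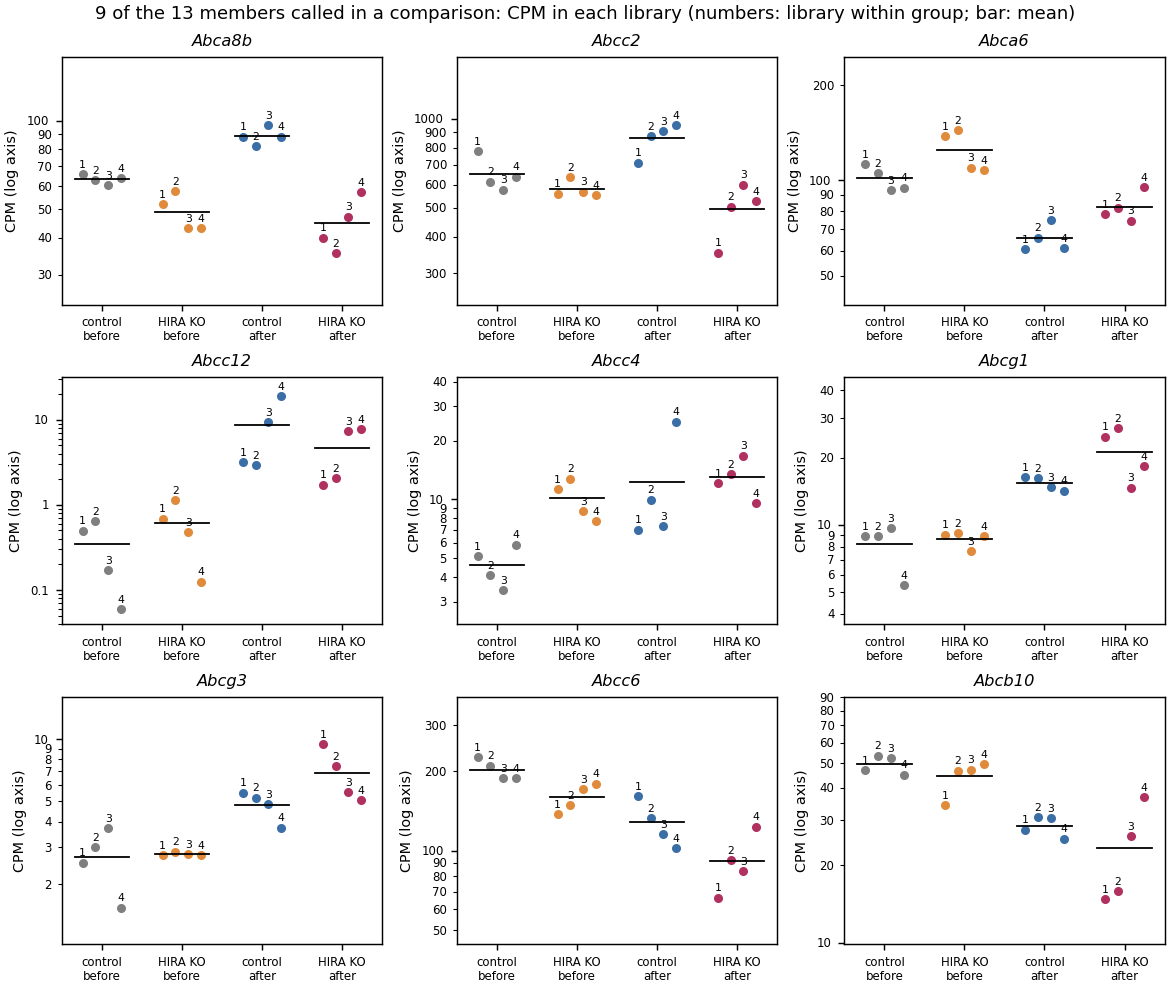
CPM in each library (vertical log axis) of 9 of the 13 members called in at least 1 comparison, in the 4 groups, with the library number beside each point and a bar at the group mean. Abcc12, Abcg1 and Abcg3 are higher after regeneration in both genotypes, Abca6, Abcc6 and Abcb10 are lower, and Abca8b and Abcc2 are lower in HIRA KO than in control after regeneration.

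Neighbours on chromosome 11 moved in different directions. Abca8b (chr11:109932190-109995845), a member of subfamily A, was at 65.9, 62.8, 60.5 and 63.9 CPM in control livers and 52.0, 57.6, 43.3 and 43.2 CPM in HIRA KO livers before regeneration. In regenerated liver it was at 88.3, 81.9, 96.8 and 88.3 CPM in control and 40.1, 35.6, 47.2 and 57.2 CPM in HIRA KO. HIRA KO lay wholly below control at both times. The log2 fold change of HIRA KO against control after regeneration was -0.98 ± 0.13 (adjusted p = 0.00455, edgeR), with a mean of 45.0 CPM against 88.8 CPM. It stayed called in 8 of 8 fits that left out 1 library, and without the 4 libraries that stood apart it was -0.75 (adjusted p = 0.0167, edgeR). The fit of the compared groups alone, which called 0 of 23001 genes, did not call it, at the same fold change (adjusted p = 0.116, edgeR). Before regeneration the change was -0.37 ± 0.13 and was not called (adjusted p = 0.268, edgeR). In control Abca8b rose with regeneration by 0.49 ± 0.13 on the log2 scale (adjusted p = 0.0237, edgeR), a call lost without control before 2, 3 or 4 or control after 3 or 4, at adjusted p of 0.0565 to 0.0694 in edgeR. In HIRA KO its change with regeneration was -0.12 ± 0.13 (adjusted p = 0.604, edgeR).

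Abca6 (chr11:110176820-110251776), of the same gene cluster, was lower after regeneration in both genotypes. It was at 113, 106, 93.1 and 94.8 CPM in control livers and 138, 145, 109.7 and 108 CPM in HIRA KO livers before regeneration. After it, Abca6 was at 60.6, 66.0, 74.8 and 61.0 CPM in control and 78.1, 82.0, 74.6 and 95.3 CPM in HIRA KO. The times did not overlap in either genotype. Fitted over all libraries, the log2 fold change was -0.63 ± 0.12 in control and -0.60 ± 0.12 in HIRA KO (adjusted p = 0.00374 and 0.00484, edgeR), called in 8 of 8 fits without 1 library in each. Without the 4 libraries that stood apart the change in HIRA KO was -0.34 and not called (adjusted p = 0.154, edgeR). Abca8a, between the others, was at 103, 91.9, 80.3 and 65.3 CPM in control livers and 98.5, 88.3, 62.4 and 60.9 CPM in HIRA KO livers before regeneration, and at 78.3, 41.7, 70.7 and 55.2 CPM in control and 42.1, 88.8, 39.4 and 56.0 CPM in HIRA KO after it. The Abca8a groups overlapped in every comparison, and neither Abca8a nor Abca9 was called. Abca5, at the end of the cluster, was at 2.44, 3.78, 3.16 and 3.65 CPM in control and 10.2, 6.93, 4.22 and 3.78 CPM in HIRA KO after regeneration, without overlap though HIRA KO after 4 and control after 2 were nearly equal. Its log2 fold change was 0.95 ± 0.26 (adjusted p = 0.0889 in edgeR and 0.0163 in DESeq2), and 0.31 without the 4 libraries that stood apart.

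Abca1, which loads cholesterol onto apolipoprotein A1, was at 133, 141, 129 and 103 CPM in control livers and 109, 124, 113 and 114 CPM in HIRA KO livers before regeneration. After it, the values were 149.8, 171, 156 and 122 CPM in control and 181, 127, 135 and 126 CPM in HIRA KO. The control and HIRA KO ranges overlapped at both times. HIRA KO after regeneration lay wholly above HIRA KO before it, by 0.31 ± 0.14 on the log2 scale, which was not called (adjusted p = 0.162, edgeR). Abca2 (chr2:25428703-25448540), a lipid transporter of endosomes and lysosomes, was at 82.2, 92.7, 101 and 71.7 CPM in control livers and 115, 139, 93.5 and 80.2 CPM in HIRA KO livers before regeneration, and at 112, 91.3, 79.4 and 66.8 CPM in control and 86.6, 71.1, 59.8 and 69.7 CPM in HIRA KO after it. It was called lower with regeneration in HIRA KO, with a log2 fold change of -0.58 ± 0.18 (adjusted p = 0.0463, edgeR). The groups overlapped, and the call was lost in 6 of 8 fits without 1 library (all but those without HIRA KO before 4 or HIRA KO after 1, adjusted p up to 0.168 in edgeR). It was also lost without the 4 libraries that stood apart (-0.41, adjusted p = 0.24 in edgeR). Abca3, which carries surfactant lipid in lung, was at 70.2, 63.3, 73.7 and 109 CPM in control livers and 144, 156, 113 and 108 CPM in HIRA KO livers before regeneration. HIRA KO before 1 and 2 were the highest, and the log2 fold change was 0.72 ± 0.20 (adjusted p = 0.178 in edgeR and 0.0374 in DESeq2). With the 4 libraries that stood apart left out, it was 0.49. Abca4, Abca14, Abca15, Abca17 and, of subfamily G, Abcg4 held at most 14 counts in any library, and no difference was detectable at this depth.

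In subfamily G, Abcg1 and Abcg3 rose with regeneration in both genotypes. Abcg1 (chr17:31057675-31117988), which exports cholesterol to high-density lipoprotein and is prominent in macrophages, was at 8.90, 8.93, 9.67 and 5.39 CPM in control livers and 9.05, 9.20, 7.61 and 8.89 CPM in HIRA KO livers before regeneration. Regenerated livers held 16.3, 16.2, 14.8 and 14.2 CPM in control and 24.8, 27.0, 14.7 and 18.3 CPM in HIRA KO. Every library after regeneration lay above every library before it. The log2 fold change was 0.90 ± 0.19 in control and 1.28 ± 0.19 in HIRA KO (adjusted p = 0.00513 and 0.0005, edgeR), called in 8 of 8 fits without 1 library in each, and 1.01 in HIRA KO without the 4 libraries that stood apart (adjusted p = 0.0119, edgeR). Abcg3 (chr5:104935057-104982718) was at 2.54, 3.01, 3.72 and 1.54 CPM in control livers and 2.75, 2.87, 2.79 and 2.76 CPM in HIRA KO livers before regeneration, and at 5.51, 5.22, 4.85 and 3.74 CPM in control and 9.43, 7.42, 5.55 and 5.06 CPM in HIRA KO after it. Its times did not overlap in either genotype either. Fitted over all libraries, the log2 fold change was 0.83 ± 0.24 and 1.30 ± 0.24 (adjusted p = 0.0356 and 0.00263, edgeR). In control the call was lost in 6 of 8 fits without 1 library, all but those without control before 3 or control after 4 (adjusted p up to 0.105 in edgeR). In HIRA KO it was 0.95 without the 4 libraries that stood apart (adjusted p = 0.0747, edgeR).

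The 11 markers of Kupffer cells and macrophages moved with these 2 members. They summed to between 203 and 545 CPM in the libraries before regeneration and to between 879.9 and 1320.2 CPM after it, and 11 of 11 were called higher in each genotype, with none at 0 counts in any library. In control before 4, where Abcg1 and Abcg3 were lowest, they summed to 203 CPM, the lowest of the 16. In HIRA KO after regeneration they summed to 1018, 923, 1156 and 1320.2 CPM, lowest in libraries 1 and 2, where Abcg1 and Abcg3 were highest. Among 13175 genes with a mean of at least 1 CPM, the 3 most like Abcg1 by Pearson correlation of log2(CPM + 1) over the 16 libraries were Cd68 (0.980), Fcgr3 (0.964) and Abcg3 (0.963), where the points share the regeneration groups. The part of macrophages in the rise of Abcg1 and Abcg3 was not tested.

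Abcg1, Abca8b and Abca6 were chosen for this by their F statistic over the 4 groups (25.9, 23.1 and 20.7), not by the size of their fold changes. The genes most like Abca8b over the 16 libraries were St6gal1 (0.900), Ppfibp2 (0.897) and Ndrg1 (0.893). Those most like Abca6 were Ces2a (0.929), Ptp4a1 (0.928) and Syde2 (0.924). For Abcc3, chosen after its values were seen, they were Nr1i3 (0.976), Nlrp12 (0.952) and Dctn4 (0.948). Nr1i3 encodes CAR, a nuclear receptor of drug metabolism. The points of all these correlations share libraries, and no p is given.

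In subfamily D, Abcd3 (chr3:121758774-121815302) was lower after regeneration. It was at 562, 547, 535 and 635 CPM in control livers and 439, 502, 683 and 788 CPM in HIRA KO livers before regeneration. After regeneration the values were 371, 355, 374 and 430.0 CPM in control and 225, 369, 449 and 411 CPM in HIRA KO. Control did not overlap between times, and HIRA KO did through HIRA KO before 1 and HIRA KO after 3. The log2 fold change was -0.73 ± 0.20 in HIRA KO (adjusted p = 0.0237, edgeR), lost without HIRA KO before 3 or 4 or HIRA KO after 1 or 2 at adjusted p of 0.0525 to 0.0893 in edgeR, and -0.76 without the 4 libraries that stood apart (adjusted p = 0.00633, edgeR). In control it was -0.57 ± 0.20 and was not called (adjusted p = 0.076 in edgeR, 0.0341 in DESeq2), though it was without the 4 libraries that stood apart (adjusted p = 0.00187, edgeR). Abcd4 (chr12:84601464-84617413), which moves vitamin B12 out of lysosomes, was at 14.1, 13.9, 12.2 and 15.3 CPM in control livers and 9.63, 10.4, 15.4 and 14.2 CPM in HIRA KO livers before regeneration, and at 11.5, 11.4, 9.27 and 8.45 CPM in control and 9.20, 6.97, 8.20 and 8.96 CPM in HIRA KO after it. The times did not overlap in either genotype. It was called lower in HIRA KO, with a log2 fold change of -0.57 ± 0.16 (adjusted p = 0.026, edgeR). Leaving out HIRA KO before 3 or 4 or HIRA KO after 2 or 3 took the adjusted p in edgeR to between 0.0602 and 0.108. Without the 4 libraries that stood apart it was -0.77 (adjusted p = 0.0123, edgeR). In control the change was -0.45 ± 0.16, not called in the fit of all libraries (adjusted p = 0.0785, edgeR) and called lower by DESeq2 (0.043), by edgeR on the compared groups alone (0.0385) and by edgeR without the 4 libraries that stood apart (0.0167).

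Abcd2, a fatty acid transporter of the peroxisomal membrane, varied widely in control. It was at 21.7, 5.59, 5.44 and 18.1 CPM in control livers and 37.0, 50.1, 27.5 and 24.4 CPM in HIRA KO livers before regeneration, and at 22.1, 6.59, 23.2 and 43.6 CPM in control and 21.2, 42.9, 28.1 and 20.0 CPM in HIRA KO after it. All HIRA KO libraries lay above all controls before regeneration, and the log2 fold change of 1.45 ± 0.56 was not called (adjusted p = 0.314, edgeR). Of 18 peroxisomal genes that work beside this subfamily, 3 were called lower with regeneration in control (Acaa1a, Acsl1 and Pex5) and 3 in HIRA KO, Acsl1 and Pex5 among them, and 0 higher. Acsl1, a fatty acid activating enzyme, changed by -1.10 ± 0.14 in control and -1.08 ± 0.14 in HIRA KO on the log2 scale (adjusted p = 0.000185 and 0.000199, edgeR). The median of the 18 was -0.47 and -0.44, and none was called in HIRA KO against control. Leaving out the 4 libraries that stood apart gave 10 called lower in control and 6 in HIRA KO. Of all genes that fit called 17.9% in control and 10.3% in HIRA KO, against 10.2% and 12.0% with all libraries.

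Among the mitochondrial members of subfamily B, Abcb10 (chr8:123952459-123983122), which supports heme synthesis, was lower after regeneration. It was at 46.8, 53.4, 52.4 and 45.0 CPM in control livers and 34.4, 46.7, 47.1 and 49.5 CPM in HIRA KO livers before regeneration. In regenerated liver it was at 27.6, 30.7, 30.5 and 25.4 CPM in control and 14.8, 15.9, 26.0 and 36.9 CPM in HIRA KO. Control did not overlap between times, and HIRA KO after 4 lay above HIRA KO before 1. Fitted over all libraries, the log2 fold change was -0.79 ± 0.22 in control and -0.93 ± 0.22 in HIRA KO (adjusted p = 0.0309 and 0.0136, edgeR). The call in control was lost in each of the 8 fits without 1 library, at adjusted p of 0.0506 to 0.0772 in edgeR, and the call in HIRA KO was kept in 8 of 8. Without the 4 libraries that stood apart it was -0.61 in HIRA KO (adjusted p = 0.0213, edgeR).

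Abcb8, an inner membrane protein, was at 31.6, 31.6, 31.4 and 31.8 CPM in control livers and 30.3, 32.1, 32.8 and 34.9 CPM in HIRA KO livers before regeneration, and at 35.0, 31.0, 29.0 and 31.3 CPM in control and 30.3, 31.4, 30.8 and 25.9 CPM in HIRA KO after it. All 16 values of Abcb8 lay between 25.9 and 35.0 CPM. The porphyrin transporter Abcb6, whose counts share sequence with Gm29253, was at 10.6, 12.7, 13.1 and 15.3 CPM in control livers and 10.7, 10.7, 16.7 and 16.1 CPM in HIRA KO livers before regeneration, and at 13.3, 12.7, 14.6 and 14.3 CPM in control and 6.25, 9.28, 12.3 and 13.1 CPM in HIRA KO after it. HIRA KO after 1 and 2 were its lowest libraries after regeneration, and Abcb6, Abcb8 and Abcb9 were called in no comparison. Of 19 mitochondrial genes of heme and iron-sulfur synthesis, 1 was called lower with regeneration in control (Iscu) and 3 in HIRA KO (Fech, Isca1 and Iscu). Iscu, the scaffold of iron-sulfur clusters, changed by -0.50 ± 0.11 and -0.35 ± 0.11 on the log2 scale (adjusted p = 0.00855 and 0.0496, edgeR). Leaving out the 4 libraries that stood apart gave 4 of the list called lower in each genotype, and Iscu in HIRA KO was not (adjusted p = 0.0969, edgeR). Of all genes that fit called 17.9% in control and 10.3% in HIRA KO, against 10.2% and 12.0% with all libraries.

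The soluble members of subfamilies E and F had small changes in all comparisons. Abce1, which splits ribosomes after translation ends, was at 69.9, 74.3, 80.8 and 76.9 CPM in control livers and 70.5, 85.0, 79.6 and 78.5 CPM in HIRA KO livers before regeneration, and at 68.4, 87.4, 95.0 and 91.3 CPM in control and 76.7, 66.9, 81.9 and 70.7 CPM in HIRA KO after it. Abcf1, a translation initiation factor, was at 68.8, 72.1, 72.9 and 80.0 CPM in control livers and 80.5, 81.4, 78.7 and 75.2 CPM in HIRA KO livers before regeneration, and at 75.8, 73.1, 80.8 and 83.2 CPM in control and 95.6, 105, 76.6 and 74.6 CPM in HIRA KO after it. Neither was called, and HIRA KO after 1 and 2 were the highest Abcf1 libraries. Abcf2 was at 34.4, 38.1, 35.9 and 40.8 CPM in control livers and 33.0, 40.8, 40.8 and 35.9 CPM in HIRA KO livers before regeneration, and at 30.8, 34.9, 35.0 and 35.3 CPM in control and 31.9, 36.1, 33.9 and 35.8 CPM in HIRA KO after it. Abcf3 was at 45.1, 47.9, 55.3 and 54.2 CPM in control livers and 47.2, 53.8, 53.6 and 46.8 CPM in HIRA KO livers before regeneration, and at 44.7, 50.4, 40.1 and 40.4 CPM in control and 46.3, 41.8, 42.4 and 41.9 CPM in HIRA KO after it. Across these 4 genes and the 4 comparisons the log2 fold changes ran from -0.22 to 0.18, and 0 passed the test in edgeR. Of 16 further genes of translation and ribosome recycling, Eif6 was called higher with regeneration in both genotypes, Eif3j1 lower in control, and Eif2s3x and Gcn1 lower in HIRA KO. Of all genes, 10.2% were called in control and 12.0% in HIRA KO. Leaving out the 4 libraries that stood apart gave 2 of the list higher and 1 lower in control. In HIRA KO it gave 1 higher and 1 lower. That fit called 17.9% of all genes in control and 10.3% in HIRA KO.

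Regulators and partners of the family were examined as lists. Of all genes, 10.2% were called with regeneration in control and 12.0% in HIRA KO. Without the 4 libraries that stood apart these shares were 17.9% and 10.3%. For HIRA KO against control the shares were 0.0391% before and 0.491% after regeneration. Of 18 nuclear receptors and other regulators of ABC genes, 1 was called in HIRA KO against control, Nr5a2 (LRH-1), lower after regeneration by -0.48 ± 0.10 on the log2 scale (adjusted p = 0.0464, edgeR). It was not called without the 4 libraries that stood apart, neither in this comparison (adjusted p = 0.221, edgeR) nor with regeneration in HIRA KO (adjusted p = 0.103, edgeR). With regeneration in control Ahr and Keap1 were called higher and in HIRA KO 3 were called lower, among them Nr5a2 and Ppara, the last by -0.87 ± 0.26 (adjusted p = 0.0427, edgeR). Of 12 target genes of NRF2, a stress sensor that also controls several exporters of subfamily C, 7 were called higher with regeneration in control and 3 in HIRA KO, and 9 and 5 without the 4 libraries that stood apart. Their median log2 fold change was 1.60 in control and 1.10 in HIRA KO. Gsta1, a glutathione transferase, changed by 4.92 ± 0.88 in control (adjusted p = 0.00416, edgeR) and Hmox1, heme oxygenase, by 1.10 ± 0.21 and 1.43 ± 0.21 in control and HIRA KO (adjusted p = 0.00369 and 0.000698, edgeR). In HIRA KO against control after regeneration 0 of the 12 were called, at a median of -0.75.

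Of 11 LXR target genes outside the family, Apoe and Mylip were called lower with regeneration in control and Mylip in HIRA KO, while the LXR targets within it, Abca1, Abcg5 and Abcg8, were not called and Abcg1 rose. Of 14 partners in lipid efflux and lipoprotein handling, a list that also holds Apoe, 1 was called higher (Soat1) and 5 lower in control, among them Apoa2, Apoc1, Apoe and Npc1, and 2 higher (Npc2 and Soat1) and 2 lower, Npc1 among them, in HIRA KO. Npc1, which moves cholesterol out of lysosomes, changed by -0.77 ± 0.17 and -0.61 ± 0.17 (adjusted p = 0.00697 and 0.0235, edgeR). Of 16 other hepatobiliary transport genes, Slc51b, a subunit of the basolateral bile acid exporter, rose by 2.10 ± 0.46 in control and 3.15 ± 0.48 in HIRA KO (adjusted p = 0.00758 and 0.000701, edgeR). Slc47a1 fell in both genotypes, and Atp7b, Pdzk1 and Slco2b1 fell in HIRA KO. The 3 ABC transporter genes with other names, Tap1, Tap2 and Cftr, were called in no comparison with all libraries, and Tap1 was called higher with regeneration in HIRA KO without the 4 that stood apart (adjusted p = 0.0198, edgeR). For control livers that fit called 2 transport genes higher and 7 lower, 2 regulators higher and 3 lower, 0 LXR targets higher and 2 lower, and 2 lipid partners higher and 6 lower. For HIRA KO livers it called 2 and 5, 0 and 4, 1 and 3, and 2 and 4, in the same order. Of all genes that fit called 17.9% in control and 10.3% in HIRA KO, against 10.2% and 12.0% with all libraries.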

How the data were processed

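Poly-A RNA was sequenced from 16 mouse liver libraries in 4 groups of 4. Per the study's methods, reads were trimmed with Trim Galore, aligned to mm10 with STAR and counted with HOMER, while the submitters' processing notes name STAR, HTSeq, Cufflinks and mm10. The authors deposited raw counts per gene and a table of FPKM, whose making is not given in the sources used here. Empty FPKM cells were read as 0. Gene IDs were annotated with GENCODE M21, with which 54673 of the 55421 IDs were identical.

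Counts were fitted with edgeR 4.0.16 (R 4.3.3), using TMM scaling and the robust quasi-likelihood test over all 4 groups, for 23018 genes with at least 10 counts in total. P-values were adjusted by the Benjamini-Hochberg method over all these genes, with 0.05 as the threshold for a call. CPM used TMM library sizes. Standard errors were derived from each log2 fold change and its F statistic. Alternatives were DESeq2 1.42.0, other scalings and filters, fits of the compared groups alone, fits without single libraries, and limma 3.58.1 on log2(FPKM + 0.1) and log2(FPKM + 1). Scripts were tested on simulated counts.

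Values in every library are given for members called in any comparison and for a fixed list of members with a known role, and other members by counts and ranges. Abca3 and Abca5 were named after their values were seen. The members and the lists of partners and markers were chosen with earlier results of these data known. 1 gene that matches the name pattern was left out of the family, and some other members and listed genes, which stay in the counts, are not reported here by name.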

Additional observations from a re-analysis of the deposited data

Results flagged for a closer look

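Among 156 groups of 4 libraries (the 39 members with a mean of at least 1 CPM in the 4 groups), 6 held a library whose gap to its nearest neighbour, divided by the range of the group, was above Dixon's critical value. That is 3.85% of the groups, where chance gives about 5%. HIRA KO after 1 was high for Abca1 at 181 CPM, with the nearest library at 135 CPM. The same library was low for Abcb1a at 4.89 CPM, with the nearest at 8.30 CPM, and high for Abcf3 at 46.3 CPM, with the nearest at 42.4 CPM. For Abca7, a phagocyte lipid transporter, control before 3 was high at 12.9 CPM, with the nearest at 10.3 CPM. Control after 4 was high for Abcc4 at 25.0 CPM, with the nearest at 9.97 CPM. Control after 1 was low for Abcf2 at 30.8 CPM, with the nearest at 34.9 CPM.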

How the results depend on the processing

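No paired analysis was possible because the columns carry numbers that no label ties to a mouse or a deletion approach. Each alternative was set against the edgeR fit of all libraries, and no member called in either had opposite directions in them. Alternatives were not set against each other. Abcb1a with regeneration in control, called higher by DESeq2, lay below 0 in limma on log2(FPKM + 0.1). Of HIRA KO against control after regeneration (2 members called), 1 was called with library totals, with upper-quartile scaling, without the 4 libraries that stood apart, and with limma on log2(FPKM + 0.1) and on log2(FPKM + 1). In the fit of the compared groups alone edgeR called 0 members and 0 of 23001 genes. An unadjusted p under 0.05 was reached there by 7 members and by 3173 of all genes. Leaving out single libraries gave 1 to 4 called members (4 without HIRA KO after 4). Before regeneration DESeq2 called 1 member where edgeR called 0. Of the 9 members called with regeneration in control, leaving out single libraries gave 4 to 9 (4 without control before 2, control after 3 or control after 4, and 5 without control before 1 or control before 4), and DESeq2 called 14. Of the 9 in HIRA KO, limma called 4 with a pseudocount of 0.1 and 3 with 1, the compared groups alone gave 5, and leaving out single libraries gave 5 to 9 (5 without HIRA KO before 3). Abcb10, 1 of these 9, was not in the limma fits, as it was listed at 0 FPKM in every library. Without single libraries the interaction stayed at 0 to 0 called members in edgeR, with 4 at an unadjusted p under 0.05 in the fit of all libraries. The cause of these differences was not tested. The balance of all calls after regeneration in HIRA KO against control was 40.7% higher, and 51.8% with DESeq2 size factors, 76.5% with library totals and 78.8% with upper-quartile scaling. Members with few counts, and those that share sequence with another gene, are limited by depth and by counting.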
